A study of Sus scrofa with 21 samples.

Results

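The comparison described here sets endometrium at conceptus attachment sites against endometrium between those sites in Large White sows on day 13 of pregnancy. It rests on 3 attachment-site arrays and 3 inter-site arrays, which are 6 of the 21 arrays in the study, and the members were chosen by their labels alone. The sows were inseminated after heat detection, and 3 pregnant sows were slaughtered on each of days 13, 18 and 24, with both kinds of site taken from pregnant sows. The reference group, 3 sows listed as non-pregnant on day 13, had received inactivated sperm of the same boar. All samples were whole endometrial tissue, not sorted cells, so fewer cells of a type and less RNA per cell cannot be told apart. The labels give no sow for any array, so no pairing by sow could be fitted. As 3 pregnant sows were taken on day 13, arrays from both sites of 1 animal are likely among the 6. The p-values use the spread between arrays within groups, estimated over all 21 arrays, and measure no other spread.

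By day 13 the pig blastocyst has hatched and is elongating into a long filament, and it lies against the uterine epithelium before firm attachment begins. The conceptus releases oestrogen, which in this species signals its presence to the mother, and it also releases interferon gamma and interferon delta. The endometrium at this stage feeds the conceptus through secretions of its glands, called histotroph, while the epithelial surface is prepared for adhesion. A difference between sites at this time asks whether the tissue next to a conceptus already differs from tissue a short distance away.

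No probe separated the sites after correction for multiple testing. On the log2 scale, relative to each array's 75th percentile, 0 of 30091 probes (0%) passed an adjusted p of 0.05 in limma, and the lowest adjusted p was 0.0899. Among named genes, each shown by its probe of highest mean, the lowest adjusted limma p was 0.58. Every named gene with an unadjusted p under 0.05 shared that value. At an unadjusted p under 0.05, 2441 probes (8.11%) stood apart, 703 of them higher (2.34%) and 1738 lower (5.78%) at attachment sites. The 3 attachment-site arrays lay wholly above the 3 inter-site arrays at 2443 probes (8.12%) and wholly below them at 2911 (9.67%). The split of higher against lower probes turned with the scaling: with the array median set to 0, 3547 were higher and 431 lower, and with quantile normalization 728 were higher and 924 lower. Over all tested probes the median difference was -0.07, which became 0.17 with the array median as the zero point and -0.29 after normexp background correction.

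Brightness moved with the site. The 75th percentile of signal intensity was 584, 484.7 and 525.8 on the attachment-site arrays and 386.8, 414.1 and 395.6 on the inter-site arrays, so the groups did not overlap. The share of probes well above background ran from 63.2% to 72.2% at attachment sites and from 68.7% to 73.9% at inter-sites. Dim probes leaned furthest towards lower values: 26420 probes well above background on all 6 arrays had a median difference of -0.04, and the other 3671 had -0.47, with 19 higher and 479 lower at an unadjusted p under 0.05. The part of brightness in this result was not tested. Slide 3 alone held arrays of both groups. With slide as a fixed block 792 probes were higher and 835 lower, with it as a random block 710 and 1840, and in neither fit did a probe pass the adjusted threshold.

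One library, inter-site replicate 1, stood apart from the other 5. Its correlation with them over all tested probes was 0.930 to 0.943, whereas pairs within the attachment group reached 0.970 to 0.980. Attachment-site replicate 1 correlated with inter-site replicate 2 at 0.982, and attachment-site replicate 3 with inter-site replicate 3 at 0.982, both above every pair within a site. Of the other 5 and the 3 non-pregnant arrays, inter-site replicate 1 correlated best with non-pregnant replicate 3, at 0.968. It was the highest of the 6 arrays at 30.7% of tested probes and the lowest at 24.8%. Without it 86 probes were higher and 581 lower at an unadjusted p under 0.05, and 0 passed the adjusted threshold. For named genes with an unadjusted p under 0.05, the difference without this library is given beside that with all 6 arrays, and for other genes and lists where stated.

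DKK1, FST, PGR and KLF5 were chosen from earlier results of these data to describe this library, so they do not test what sets it apart. DKK1, a secreted inhibitor of WNT signalling, measured 5.68, 4.33 and 4.84 at attachment sites, 5.09 and 4.52 in inter-site replicates 2 and 3, and -3.23 in inter-site replicate 1. The non-pregnant arrays read -4.62, -5.37 and -4.62 for DKK1, close to inter-site replicate 1 and far from the other 5 libraries of pregnant sows. FST, encoding follistatin, which binds and blocks activins, was 2.67, 2.03 and 2.16 at attachment sites and -2.25, 2.25 and 2.21 at inter-sites, against a non-pregnant mean of -2.72 ± 0.72 (SD, n = 3). PGR, the nuclear progesterone receptor, held within 1.15 to 1.25 on the other 5 arrays of pregnant sows, read 2.16 in inter-site replicate 1, and averaged 3.28 in the non-pregnant group. KLF5, a zinc finger factor of epithelial cells, was -0.74 there and between 1.11 and 2.20 on the other 5. Levels of these genes in inter-site replicate 1 lay on the non-pregnant side of the other libraries of pregnant sows, although its label lists it as pregnant. Not every gene did so: PLA2G7, UCHL5 and TYW3 read 2.80, 1.55 and 0.87 on this array, against non-pregnant means of 4.52, 2.57 and 1.65. Whether this array holds endometrium of a pregnant sow cannot be told from the labels and values used here, and each difference that rests on it carries that doubt. Once it was left out, the site difference was 0.14 for DKK1 in place of 2.82, 0.05 for FST in place of 1.55, 0.00 for PGR in place of -0.32 and -0.39 for KLF5 in place of 0.50.

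**Figure D1:**
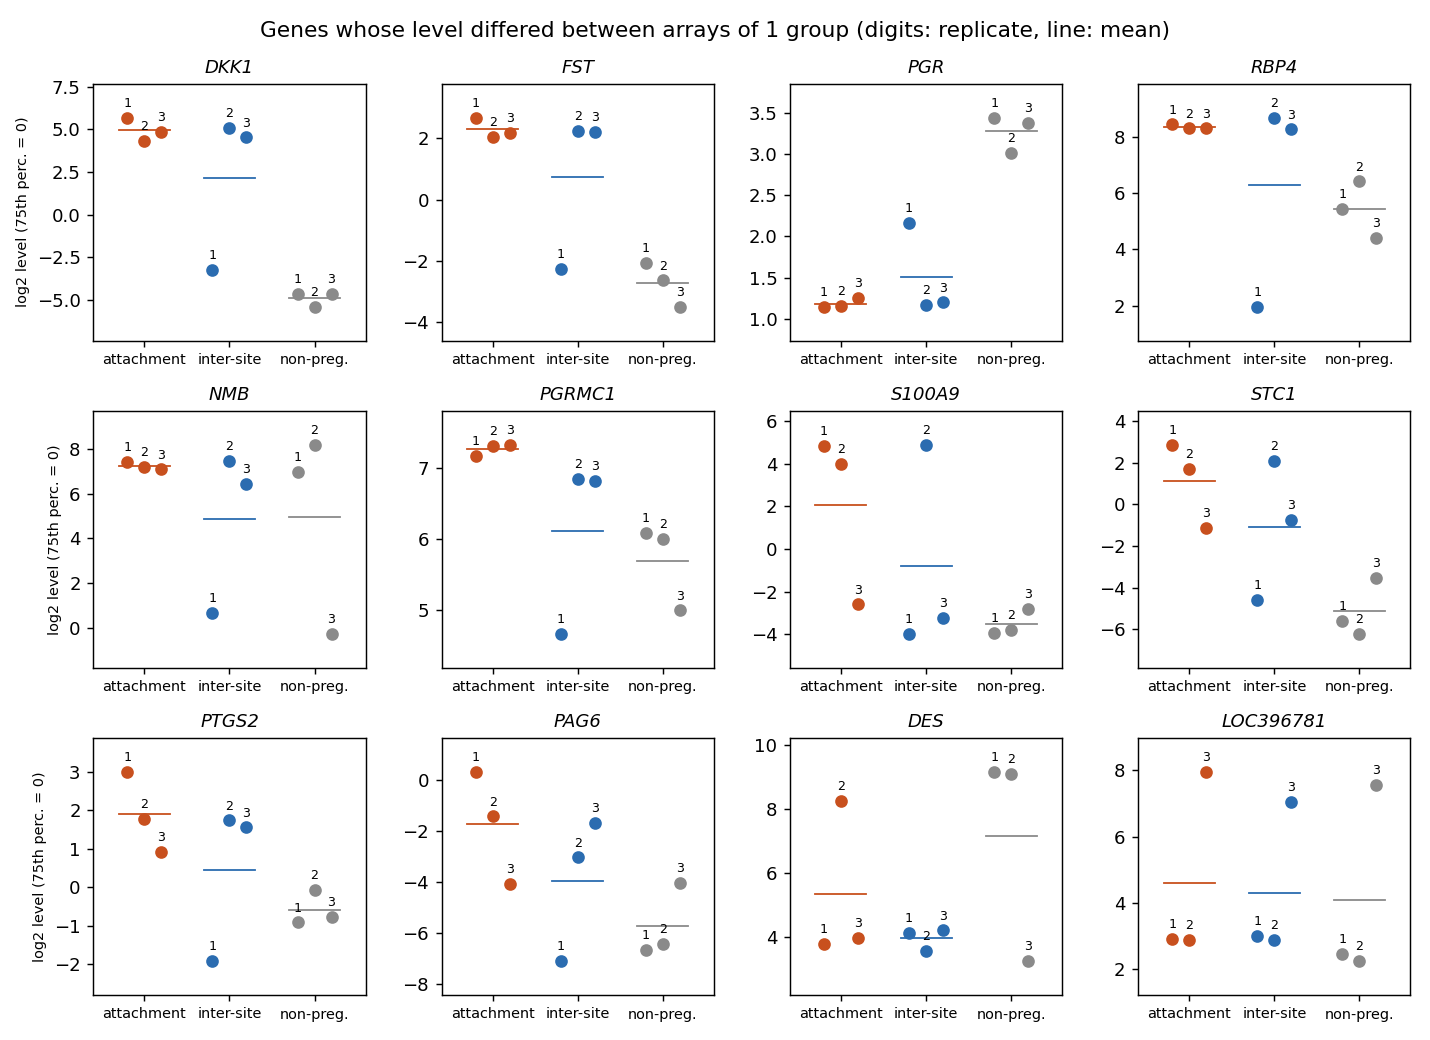
Levels of 12 genes on each array of the attachment-site, inter-site and non-pregnant groups on day 13 (vertical axes: log2 signal with the array's 75th percentile at 0, scaled separately per gene; digits give the replicate, lines the group mean of 3 arrays). DKK1, FST, RBP4, NMB and PGRMC1 are low in inter-site replicate 1 alone among the pregnant sows, S100A9 is high on 3 arrays that span both sites, DES is high in attachment-site replicate 2, and LOC396781 is high in replicate 3 of each group.

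Of 2018 tested genes with a symbol, 71 (3.52%) were higher and 27 (1.34%) lower at attachment sites at an unadjusted p under 0.05. Their groups did not overlap at 221 genes with attachment sites above (11%) and 62 with attachment sites below (3.07%). Inter-site replicate 1 was the lowest of the 6 arrays in 63 of the 71 higher genes and the highest in 19 of the 27 lower genes. All 98 kept their direction without it, but for the 69 of them with no overlap leaving out an array could not turn the direction. An unadjusted p under 0.05 remained for 8 of the 71 and 7 of the 27.

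The 15 genes highest at attachment sites, among those with no overlap and an unadjusted p under 0.05, included enzymes of amino acid use, epithelial junction proteins and kinases. PHGDH, which catalyses the first step of serine synthesis, measured 2.84, 3.46 and 2.92 at attachment sites and 0.46, 1.77 and 2.41 at inter-sites. The difference was 1.52 ± 0.58 (SE), 2.87-fold, with an unadjusted limma p of 0.0176, and it was 0.98 without inter-site replicate 1. Both PHGDH probes pointed the same way, and the non-pregnant mean, 0.42, sat beside the lowest inter-site array. BCKDHB, a subunit of the complex that breaks down branched-chain keto acids, had attachment-site levels of 3.86, 3.08 and 3.29 and inter-site levels of 1.01, 2.61 and 2.90, a difference of 1.23 ± 0.54 that became 0.65 without that library. All 4 BCKDHB probes were higher at attachment sites.

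PGRMC1, a haem-binding membrane protein named for its link to progesterone, was bright and tight at attachment sites, with 7.17, 7.31 and 7.33. At inter-sites it read 4.66, 6.85 and 6.82, so replicate 1 carried most of the 1.16 ± 0.54 difference, and 0.43 remained without it. CLDN3, a sealing protein of tight junctions, gave 5.63, 5.82 and 5.97 against 3.45, 5.35 and 5.38, a difference of 1.08 ± 0.45 that became 0.44. CLDN7, a related claudin, gave 4.11, 3.86 and 4.44 against 2.69, 3.63 and 3.76, a difference of 0.78 ± 0.35 that became 0.45. The rule that chose these genes required every attachment-site array to exceed inter-site replicates 2 and 3, and the average gap to those was 0.43 to 0.45. Without inter-site replicate 1 the unadjusted limma p-values were 0.373 for PGRMC1, 0.261 for CLDN3 and 0.229 for CLDN7.

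PLA2G7 encodes a secreted hydrolase that inactivates platelet-activating factor, and it had the second smallest p of the named genes. Its levels were 4.39, 4.21 and 4.14 at attachment sites and 2.80, 3.88 and 3.44 at inter-sites. The difference of 0.87 ± 0.27 was 0.58 without inter-site replicate 1, and all 4 probes agreed in sign. Here the non-pregnant arrays, with a mean of 4.52 ± 0.34 (SD, n = 3), were level with the attachment sites and above the inter-sites.

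Signalling and trafficking genes filled much of the rest. TBK1, a kinase upstream of interferon induction, measured 1.25, 1.34 and 1.02 against -0.05, 0.72 and 0.58, a difference of 0.79 ± 0.25 that was 0.55 without inter-site replicate 1. CHUK, a kinase of the NF-kappa-B pathway, measured -0.67, -1.70 and -0.98 against -2.45, -1.85 and -1.85, a difference of 0.93 ± 0.40 that was 0.73 without it. MAP2K1, the kinase that activates ERK, differed by 0.96 ± 0.37 and by 0.48 without that library, and all 5 of its probes agreed in sign. IGF1R, the receptor of insulin-like growth factors, differed by 0.79 ± 0.37 but by 0.26 without inter-site replicate 1, where it read -2.72. CFLAR, an inhibitor of caspase-8, differed by 0.78 ± 0.35, which became 0.46. CLTC, the clathrin heavy chain, differed by 0.78 ± 0.25, which became 0.57, although its second probe gave -0.14. CTSV, a cysteine protease of the lysosome, had 10 probes that all read higher at attachment sites, and its chosen probe gave 6.04, 6.2 and 5.76 against 4.67, 5.44 and 5.32, a difference of 0.86 ± 0.35 that became 0.62. In 13 of these 15 genes inter-site replicate 1 was the lowest of the 6 arrays.

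COPS5, the catalytic subunit of the COP9 signalosome, did not rest on that library. It measured 3.06, 2.87 and 2.91 at attachment sites and 2.30, 2.33 and 2.43 at inter-sites, with the same 0.58 gap within slide 3. The difference was 0.59 ± 0.20 with all 6 arrays and 0.57 without inter-site replicate 1, with unadjusted limma p-values of 0.00863 and 0.0251. All 6 COPS5 probes were higher at attachment sites, by 0.32 to 0.62, and the non-pregnant mean of 2.96 matched the attachment sites. UCHL5, a deubiquitinase of the proteasome, differed by 0.71 ± 0.24, and by 0.49 without that library, with 5 of 5 probes in the same direction. TYW3, a tRNA-modifying enzyme, differed by 0.54 ± 0.18, and by 0.40 without it, with both probes in the same direction. All 3 belong to the 10 genes of smallest p.

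A pair of the higher genes were dim and depended on the background correction. PIGE-108A11.3 had the smallest p of all named genes, with -4.75, -4.42 and -4.74 against -5.47, -5.99 and -7.13, but it was well above background on 2 attachment-site arrays and on no inter-site array, and its difference of 1.56, 1.92 without inter-site replicate 1, turned to -0.48 under normexp. ZPBP, named for binding the zona pellucida, had a difference of 0.82, 1.01 without that library, that turned to -0.19 under normexp, and its other probe gave -0.69.

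**Figure D2:**
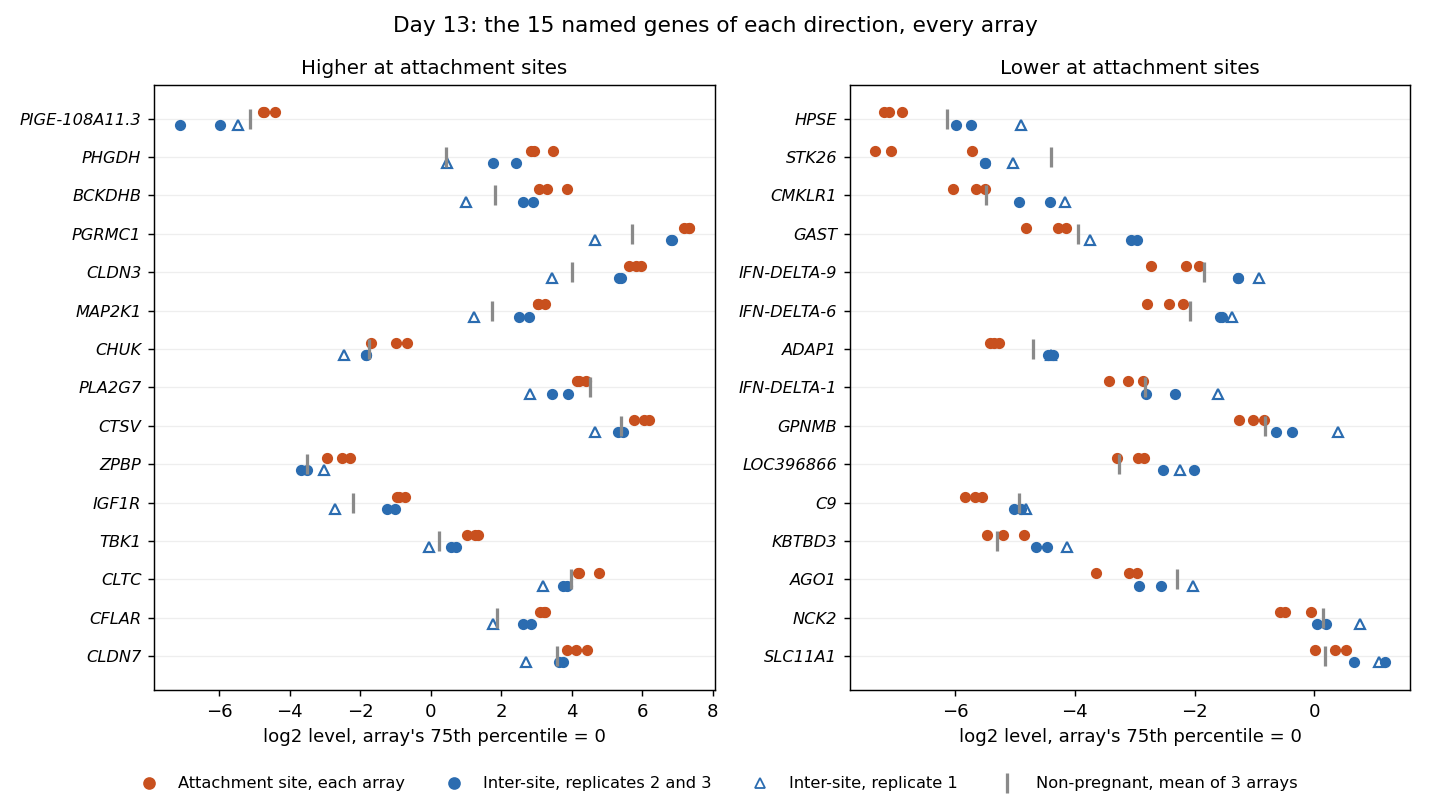
Level of each of the 15 named genes with the largest difference in each direction, among genes whose groups did not overlap and whose unadjusted limma p was under 0.05 (horizontal axes: log2 signal with the array's 75th percentile at 0). Points are arrays, the open triangle is inter-site replicate 1 and the grey tick is the mean of 3 non-pregnant arrays. The triangle is the lowest point in 13 of the 15 higher genes and the highest in 11 of the 15 lower genes.

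The 3 named genes with the largest negative differences among those with no overlap were dim at attachment sites. HPSE, the heparanase that cuts heparan sulphate in the matrix, read -7.10, -6.89 and -7.18 at attachment sites and -4.89, -5.99 and -5.73 at inter-sites. It was well above background on no attachment-site array and on 1 inter-site array, so the difference of -1.52 ± 0.58, -1.20 without inter-site replicate 1, lay close to the detection limit. STK26, a kinase of the germinal centre family, was likewise above background on no attachment-site array and on 2 inter-site arrays, with a difference of -1.36 ± 0.55 that was -1.21 without that library. CMKLR1, the receptor of the chemoattractant chemerin, read -5.49, -5.64 and -6.03 against -4.17, -4.93 and -4.42. Its difference of -1.21 ± 0.43 was -1.05 without inter-site replicate 1, with unadjusted limma p-values of 0.0119 and 0.047, and it was above background on all 3 inter-site arrays and on 1 at attachment sites. Of the 15 lowest genes 9 were above background on all 6 arrays.

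Interferon delta is a trophoblast product in the pig, and 3 of its gene copies were lower at attachment sites. IFN-DELTA-9 read -2.73, -2.14 and -1.93 against -0.93, -1.27 and -1.27, a difference of -1.11 ± 0.38. IFN-DELTA-6 differed by -0.97 ± 0.37 and IFN-DELTA-1 by -0.88 ± 0.28, and without inter-site replicate 1 the differences were -1, -0.91 and -0.57 in that order. The non-pregnant means were -1.84, -2.08 and -2.82, in the same order, each between the means of the 2 sites. The copies are related in sequence and their probes may share signal.

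Some other genes in this direction were brighter. SLC11A1, a metal transporter of macrophage phagosomes, read 0.01, 0.53 and 0.35 against 1.08, 0.66 and 1.18, a difference of -0.68 ± 0.28 that was -0.62 without inter-site replicate 1. NCK2, an adaptor between receptors and actin, read -0.58, -0.49 and -0.06 against 0.76, 0.19 and 0.05, a difference of -0.71 that was -0.50, though its second probe gave 0.35. GPNMB, a glycoprotein of macrophages and pigment cells, read -1.03, -0.84 and -1.26 against 0.39, -0.64 and -0.37, a difference of -0.84 that was -0.54, with 4 of 4 probes lower. GAST, the precursor of gastrin, ADAP1, AGO1, KBTBD3 and LOC396866 had differences from -1.15 to -0.73, and from -1.40 to -0.49 without inter-site replicate 1. The second GAST probe had the opposite sign, at 0.38. ADAP1 and KBTBD3 were dim, each well above background on 2 attachment-site arrays and 3 inter-site arrays. SLC23A2, a vitamin C transporter, differed by -1.10 ± 0.38, and by -0.68 without inter-site replicate 1. It was dim too, well above background on 1 attachment-site array and 3 inter-site arrays, and its groups overlapped.

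Detection itself differed between the sites for few genes. AFP, the alpha-fetoprotein of yolk sac and fetal liver, was above background on all 3 attachment-site arrays, at -3.56, -5.76 and -5.17, and on no inter-site array, at -7.54, -5.75 and -7.33. This puts AFP at least 1.64-fold higher at attachment sites, with an adjusted limma p of 0.606. The reverse held for C9, the last component of the complement attack complex, with a mean at least 1.44-fold higher at inter-sites (unadjusted limma p 0.0239). It held also for HORMAD1, a protein of meiotic chromosomes, with a mean at least 1.33-fold higher there (unadjusted limma p 0.156). Detection on these same arrays chose these genes, so the bounds describe the arrays and test nothing. Each bound sets the bright group's mean against that of the dim group, where each array takes the higher of the probe's own signal and the lowest signal of any probe well above background. Among 30091 tested probes, 5 were detected only at attachment sites in this sense and 45 only at inter-sites. Arrays of attachment sites had 63.2% to 72.2% of probes well above background, and those of inter-sites 68.7% to 73.9%. The part of this in the counts was not tested.

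Conceptus transcripts followed the arrays more than the sites. Pregnancy-associated glycoproteins are made by trophoblast, and PAG6 read 0.32, -1.42 and -4.08 at attachment sites and -7.08, -3.03 and -1.69 at inter-sites. The groups overlapped, since inter-site replicates 2 and 3 exceeded attachment-site replicate 3, and inter-site replicate 1 lay below the non-pregnant mean of -5.70. PLET1, a protein expressed in placenta, ranked the arrays in a similar way, with 0.41, -0.64 and -2.87 against -6.63, -3.04 and -1.10. TTR, the thyroxine carrier made by yolk sac and liver, read -0.90, -2.54 and -2.31 against -6.07, -1.33 and -2.17, and its difference of 1.27 became -0.16 without inter-site replicate 1. IFNG read -1.14, -3.69 and -5.68 against -6.08, -4.90 and -3.78. Of 17 tested markers of trophoblast and conceptus, 0 were higher and 1 (IFN-DELTA-1) lower at an unadjusted p under 0.05. The shares of all tested named genes were 3.52% and 1.34%, and the list's median was -0.05. At the low end stood TFAP2C, a trophoblast transcription factor, at -1.45, and CYP17A1, an enzyme of androgen synthesis, at -1.04.

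Epithelial markers were the list with the most even difference. All 8 tested members had a positive difference, from 0.06 for WFDC2 to 1.08 for CLDN3, with a median of 0.59 against 0.07 over the tested named genes. CLDN3 and CLDN7 had an unadjusted p under 0.05, and 4 of the 8 did not overlap between groups, where the shares of all tested named genes were 3.52% and 11%. EPCAM, an epithelial adhesion protein, read 5.63, 5.44 and 5.37 against 4.91, 5.11 and 5.16, and its 16 probes all pointed the same way. CDH1, the epithelial cadherin, read 3.73, 2.97 and 3.00 against 2.57, 2.84 and 2.71, with no overlap, though its second probe was opposite in sign. WFDC2, a secreted protease inhibitor, overlapped widely, with 6.75, 5.42 and 3.77 against 5.22, 6.13 and 4.40. The list's median stayed above 0 in all 19 settings, but was 0.30 without inter-site replicate 1, in which 6 of the 8 genes had their lowest value.

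Stromal fibroblast markers had no common direction, and endothelial markers had mostly negative differences. Among 8 stromal fibroblast markers, DCN, a small proteoglycan of connective tissue, read 7.64, 7.30 and 7.58 against 7.65, 7.60 and 7.54, and the median was -0.04, from IGF1 at 1.35 and FBN1 at 0.04 to MMP2 at -0.46 and THY1 at -0.74. Of 9 endothelial markers 8 had a negative difference, with a median of -0.28 that stayed below 0 in all 19 settings (-0.50 to -0.03), but none reached an unadjusted p under 0.05 or separated the groups, and PECAM1, an adhesion molecule of vessel walls, read 3.33, 2.80 and 2.76 against 3.43, 3.55 and 2.72. At the ends of that list were CDH5 at 0.08, SELP at -0.06, ICAM2 at -0.37 and SELE at -0.70.

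Smooth muscle markers had the highest list median, 1.03, and this rested on attachment-site replicate 2. DES, the muscle intermediate filament protein desmin, read 3.79, 8.25 and 3.96 at attachment sites and 4.12, 3.55 and 4.20 at inter-sites. ACTA2, smooth muscle actin, read 3.95, 7.52 and 4.55 against 3.75, 3.78 and 4.49, and CNN1, calponin, 2.81, 7.03 and 3.58 against 3.04, 2.95 and 3.61. The median level of all 11 markers was 1.69 in that library and between -1.53 and -1.20 on the other 5, while the non-pregnant arrays read 2.83, 2.50 and -1.63. Of the 11 markers 9 had their highest value in attachment-site replicate 2. Without it the list's median was 0.00, with slide as a fixed block it was -0.05, and SGCA and SGCD had negative differences of -0.45 and -0.06 with all arrays. The effect of this muscle signal on other genes was not tested.

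Few immune markers separated the sites. Of 22 tested macrophage and myeloid markers 17 had a negative difference, with a median of -0.39, but 0 had an unadjusted limma p under 0.05 and 0 separated the groups, and the median was 0.01 without inter-site replicate 1, in which 14 of them peaked. SPI1, the myeloid transcription factor, and CD80, a co-stimulatory ligand, were lowest at -0.87 each. Among 20 T and NK lymphocyte markers the median was -0.14, with IFNG at 1.42 and CD247 at 0.57 at the top and CTLA4 and CD3D at the bottom. CTLA4, an inhibitory receptor of T cells, read -6.26, -5.81 and -6.79 against -6.44, -1.89 and -5.21, so its -1.77 came from a single high array. CD3D, a chain of the T cell receptor complex, read -5.93, -5.82 and -5.16 against -4.46, -5.02 and -4.61, a difference of -0.94 ± 0.49 with no overlap. GZMB, a granule protease of killer lymphocytes, also did not overlap, with a difference of 0.21, and neither gene had an unadjusted p under 0.05. The 24 antigen presentation genes had a median of -0.02, from SLA-7 at 1.01 and SLA-DOB at 0.58 to SLA-DRB1 at -0.40 and CD1D at -0.45, and PSME2, a proteasome activator subunit at 0.30, was the one member whose groups did not overlap. Over all tested named genes, attachment sites lay wholly above at 11% and wholly below at 3.07%.

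Of 59 cytokine and chemokine genes 41 had a negative difference, and the median, -0.25, stayed below 0 in all 19 settings. One, IL10RB, a chain of the interleukin-10 receptor, had an unadjusted p under 0.05, higher at attachment sites by 0.77 ± 0.33 and by 0.31 without inter-site replicate 1. Over all tested named genes 3.52% were higher and 1.34% lower at that threshold. CCL28, a mucosal chemokine, read 1.58, 2.61 and 3.38 against 1.57, 0.52 and 3.12. IL1B, a proinflammatory cytokine, was lowest at -0.89, and IL7R followed at -0.79, both highest in inter-site replicate 1. IL1B2, the copy expressed by the elongating pig conceptus, read -2.20, -1.75 and -2.29 against -1.90, -2.13 and 0.08, so inter-site replicate 3 stood out alone. Of 28 interferon response genes none reached an unadjusted p under 0.05 and the median was 0.01, though its sign varied with the setting. The groups did not overlap at 3 of the 28, all lower at attachment sites, where 3.07% of all tested named genes were. UBD, a ubiquitin-like modifier, was at 0.30, whereas MX2, an antiviral GTPase, read -2.12, -2.75 and -2.06 against -0.96, -1.52 and -1.47, and CXCL9 was at -0.72.

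Calgranulins switched between arrays, not sites. S100A9, a calcium-binding protein of neutrophils and inflamed epithelium, read 4.82, 4.01 and -2.60 at attachment sites and -3.97, 4.89 and -3.24 at inter-sites. S100A8, its partner, read 1.52, 0.41 and -1.44 against -3.17, 0.86 and -2.32, and S100A12 3.05, 1.79 and 0.05 against -2.63, 2.51 and -0.68. Attachment-site replicates 1 and 2 and inter-site replicate 2 were high for all 3 genes, and the difference within slide 3 was -7.48 for S100A9, opposite to the group difference of 2.85. SULT1E1, which inactivates oestrogens by sulphation, followed the same arrays, with -0.17, -0.73 and -4.36 against -5.67, -0.57 and -4.41. STC1, a secreted glycoprotein of the uterine epithelium, did so too, with 2.86, 1.69 and -1.13 against -4.59, 2.09 and -0.73. The immunoglobulin gamma heavy chain locus LOC396781 ran otherwise, at 2.93, 2.90 and 7.95 against 3.01, 2.88 and 7.04, and its 13 probes agreed in sign, although copies of this gene family may share signal. Spread of this size between arrays of 1 site exceeded any site difference in these genes.

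Among 30 innate antibacterial genes the median was -0.04, with 0 at an unadjusted p under 0.05. SAA3, an acute phase protein, read 4.67, 3.15 and 3.60 against -0.16, 2.66 and 3.33, and its difference of 1.86 ± 0.94 was 0.81 without inter-site replicate 1. PGLYRP1, which binds bacterial peptidoglycan, read -2.70, -0.98 and -0.57 against -4.16, -4.29 and -1.14. LTF, lactoferrin, was at -1.63 and BPI, which binds bacterial lipopolysaccharide, at -2.27, and BPI was above background on 1 of the 6 arrays. Of 33 complement and coagulation genes, C9 was lower, by -0.76 and by -0.72 without inter-site replicate 1, and 0 were higher at an unadjusted p under 0.05, and the median was -0.21. At that threshold 1.34% of all tested named genes were lower and 3.52% higher. C5 at -1.42 and C7 at -0.99 were the lowest, and F7 and PROC the highest at 0.79 each.

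Several oestrogen-responsive genes and secreted proteins had an outlying value in inter-site replicate 1. The 16 oestrogen-responsive genes had a median of 0.37, which was 0.17 without that library and above 0 in all 19 settings (0.12 to 0.85), and none had an unadjusted p under 0.05. NMB, the peptide neuromedin B, read 7.41, 7.18 and 7.08 against 0.66, 7.45 and 6.42, a difference of 2.38 that became 0.29. MYC, a growth-promoting transcription factor, read 0.38, -0.16 and -0.21 against 2.26, 0.06 and -0.12, and S100G, a calcium carrier, differed by -0.56. RBP4, the retinol carrier of histotroph, read 8.43, 8.29 and 8.29 against 1.98, 8.67 and 8.25, so its difference of 2.04 became -0.12. SLPI, a protease inhibitor in uterine secretions, read 5.35, 5.58 and 3.67 against 8.57, 5.82 and 4.79. Over the 39 histotroph genes the median was -0.11. OPTC was the one with an unadjusted p under 0.05, higher at attachment sites, where 3.52% of all tested named genes were.

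OPTC, the small leucine-rich proteoglycan opticin, had the largest positive difference of the tested named genes. It read 0.40, 1.63 and 1.68 at attachment sites and -5.36, -0.88 and 1.07 at inter-sites, and -6.47 on average in non-pregnant sows. The difference was 2.96 ± 1.17 with all arrays and 1.14 without inter-site replicate 1, and the groups overlapped. Among 26 genes of the extracellular matrix and its remodelling, OPTC was higher and HPSE and ADAM17 lower at an unadjusted p under 0.05, with a median of -0.03. The shares of all tested named genes were 3.52% higher and 1.34% lower. TIMP2, an inhibitor of matrix metalloproteases, read 6.06, 5.29 and 5.34 against 1.32, 5.52 and 5.10, so that its 1.58 became 0.25. ADAM17, the sheddase of membrane ligands, differed by -0.68 ± 0.31, and by -0.52 without that library.

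Growth factor genes gave 2 higher and 1 lower of 34 at an unadjusted p under 0.05, against 3.52% and 1.34% of all tested named genes, with a median of 0.17. AREG, an EGF receptor ligand, read -3.05, -6.14 and -2.99 against -6.47, -4.76 and -6.93, a difference of 1.99 ± 0.84 that was 1.79 without inter-site replicate 1. It was above background on 2 attachment-site arrays and 1 inter-site array, and the groups overlapped. IGF1 read 2.53, 2.84 and 2.46 against -0.87, 2.22 and 2.43, and ACVR1B, an activin receptor, differed by -0.81 ± 0.37, and by -0.52 without that library. BMP7, a bone morphogenetic protein, was lowest at -1.20 and read 0.33 in inter-site replicate 1 against -3.05 to -2.20 on the other 5.

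Of 13 genes of amino acid and polyamine metabolism, PHGDH and KMO had an unadjusted p under 0.05, both higher, where 3.52% of all tested named genes were. The list's median of 0.19 was 0.27 without inter-site replicate 1 and above 0 in all 19 settings. KMO, an enzyme of tryptophan breakdown, read 1.24, 1.99 and 1.04 against -1.91, 1.05 and 0.26, so attachment-site replicate 3 lay just below inter-site replicate 2, and its 1.62 ± 0.64 became 0.77. GATM, the first enzyme of creatine synthesis, read 2.22, 2.69 and 1.12 against 0.33, 2.11 and 0.69, and at the low end ARG1, arginase, was at -0.49 and AZIN1 at -0.37. Of 28 genes of steroid reception and metabolism, PGRMC1 and NCOA1, a steroid receptor coactivator, were higher and none lower, against 3.52% and 1.34% of all tested named genes, and the median of 0.15 was -0.01 without inter-site replicate 1. NCOA1 differed by 0.44, and by 0.41 without that library. AKR1C1, which reduces progesterone, read -1.51, -0.05 and -0.65 against -4.11, -1.35 and -1.77. NR4A3, an orphan nuclear receptor, was lowest at -1.14. CYP19A1, an aromatase, read 1.23, 2.09 and 1.43 against 2.31, 1.77 and 2.54. The 39 genes of lipid and fuel use had a median of 0.10. SQLE, an enzyme of cholesterol synthesis, was highest at 1.12, though -0.04 without inter-site replicate 1. PNPLA3 at -1.07 and DGAT2 at -0.76, both enzymes of triglyceride metabolism, were lowest.

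PTGS2, the inducible enzyme of prostaglandin synthesis, read 3.00, 1.77 and 0.93 against -1.91, 1.74 and 1.56, and its difference of 1.43 became 0.25 without inter-site replicate 1. The 13 prostaglandin genes had a median of -0.02, with PTGFR next at 0.39, and SLCO2A1, the prostaglandin transporter, lowest at -0.49 after ALOX5AP at -0.44. Of 29 nutrient transporters SLC7A1 was higher, by 0.54 and by 0.25 without that library, and SLC11A1 lower at an unadjusted p under 0.05. Among all tested named genes the shares were 3.52% and 1.34%. SLC7A9, an amino acid carrier, read 0.97, 0.34 and -0.79 against -5.18, 1.18 and -0.04. The water channels AQP11 at 0.93, AQP5 at -0.77 and AQP3 at -0.94 stood near the ends of that list. Of 21 calcium and ion genes TRPV4, a cation channel, differed by -0.97 ± 0.39 and by -0.82 without that library, with -4.67, -3.57 and -4.07 against -2.84, -4.13 and -2.43, and CALCB followed at -0.86. None of 28 adhesion and mucin genes or of 26 angiogenic and vasoactive genes reached an unadjusted p under 0.05, with medians of -0.01 and -0.06. MUC20, an epithelial mucin, read 1.24 in inter-site replicate 1 and -1.71 to -0.97 on the other 5, and ADM, the vasodilator adrenomedullin, 0.52 there and 2.06 to 3.75 elsewhere. ITGB6, an epithelial integrin chain, was highest of the adhesion genes at 0.61, and of the vasoactive genes NPPC at 1.36 and EPAS1 at 0.99 were highest and EDN3 at -0.73 and CALCRL at -0.72 lowest.

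Cell cycle genes had a median of -0.39 over 15 tested members, which was 0.02 without inter-site replicate 1. CDK1, the kinase that drives mitosis, read -2.46, -2.98 and -1.98 against -0.41, -2.62 and -1.50, and TOP2A, which untangles replicated DNA, -3.92, -5.06 and -3.10 against -1.66, -4.27 and -2.53. CDC20 was lowest at -1.55. CDKN1B, an inhibitor of cyclin-dependent kinases, was the one member with an unadjusted p under 0.05, higher by 0.65 ± 0.27 and by 0.41 without that library, and CDK4 followed at 0.47. Higher at that threshold were 3.52% of all tested named genes. Cytosolic ribosomal proteins, 30 genes of the basic translation machinery, spanned only -0.22 to 0.44 with a median of 0.02, and 0 had an unadjusted limma p under 0.05. RPS4X was highest at 0.44, and RPS26 at -0.22 and RPS23 at -0.20 lowest. The 19 immediate early and heat shock genes had a median of 0.09, from BTG2 at 1.03 and HSPB1 at 0.70 to NR4A3 and MYC, and 0 had an unadjusted limma p under 0.05.

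**Figure D3:**
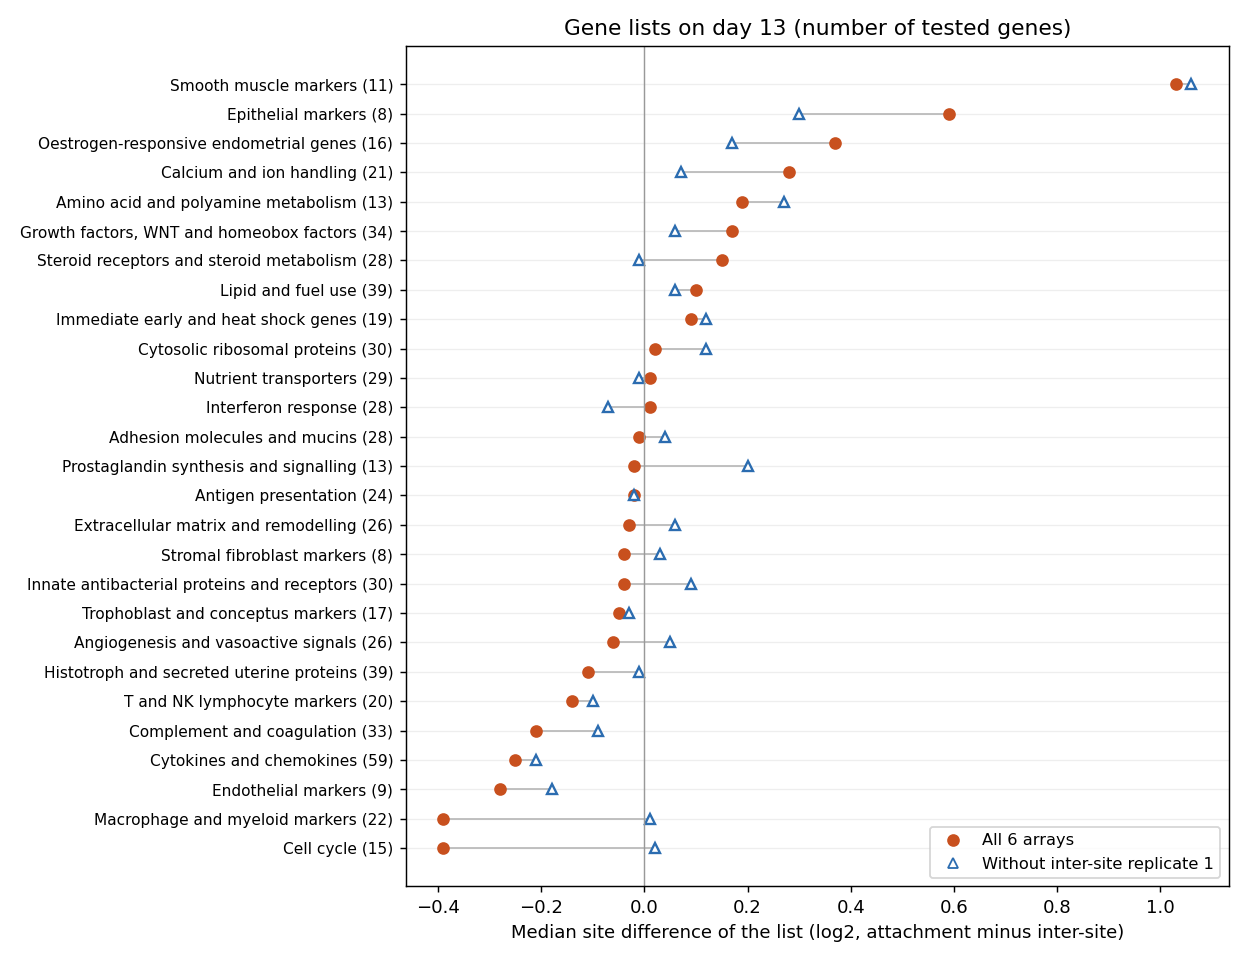
Median site difference of each gene list with 8 or more tested genes (horizontal axis: log2, attachment minus inter-site; number of tested genes in brackets). Filled points use all 6 arrays and open triangles leave out inter-site replicate 1. Macrophage and cell cycle medians of -0.39 move to 0.01 and 0.02, the epithelial median from 0.59 to 0.30, and the smooth muscle median stays near 1.03 because it rests on another library.

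**Figure D4:**
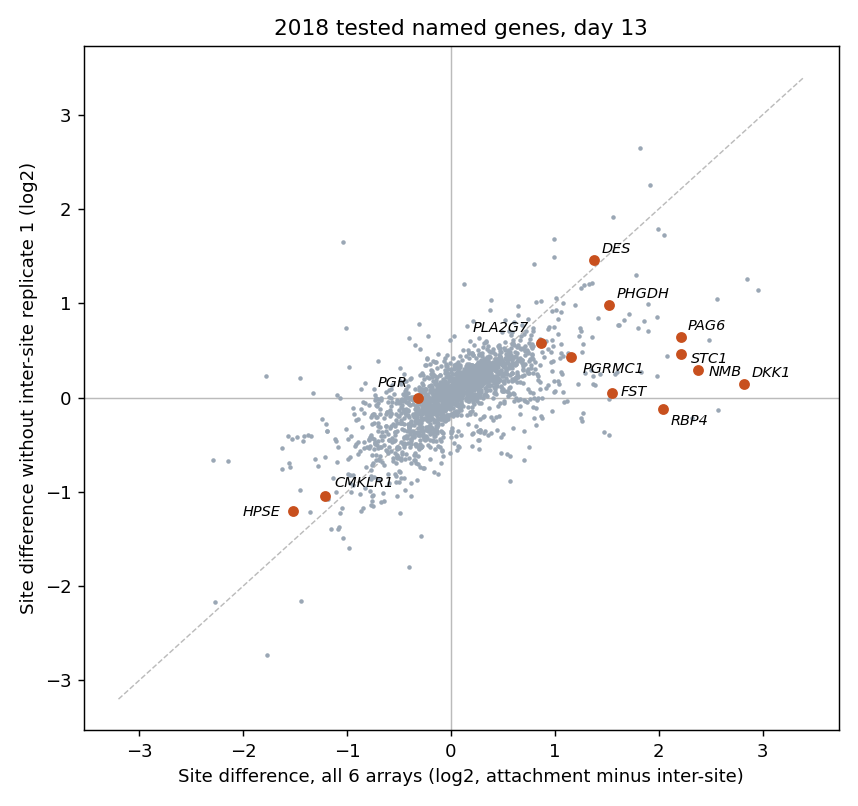
Site difference of the 2018 tested named genes with all 6 arrays (horizontal axis, log2) and without inter-site replicate 1 (vertical axis, log2), with equality dashed. DKK1, NMB, RBP4 and FST lie far to the right near a vertical value of 0, whereas PLA2G7, CMKLR1 and HPSE keep most of their difference.

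The later days used other arrays and so allow the day 13 differences to be set beside them. The site difference on day 18 minus that on day 13 passed an adjusted limma p of 0.05 at 0 of 30091 probes (2380 at an unadjusted p under 0.05), and that of day 24 minus day 13 at 6 (0.0199%). Of 554 probes that were higher at attachment sites on day 13, with no overlap and an unadjusted p under 0.05, 162 (29.2%) were also higher on day 18, where 49.8% of all probes were. Of 1190 lower probes 417 (35%) were also lower on day 18, where 50.2% of all probes were. On day 24 the shares in the same direction were 71.1% of the higher probes, against 44% of all, and 79% of the lower probes, against 56%. These shares moved when libraries were left out. Probes chosen anew without inter-site replicate 1 of day 13 were 81 higher and 478 lower, of which 45.7% and 44.6% kept their direction on day 18 and 71.6% and 66.5% on day 24. Replicate 3 of the day 24 inter-site group also lay near the non-pregnant arrays, with -6.13 for DKK1, -3.16 for FST and 3.04 for PGR, so the day 24 differences carry the same doubt. Without it alone the day 24 shares were 55.2% and 70.4%, and without both libraries 62.3% and 63.9%, against 45.6% and 54.4% of all probes.

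Of the 15 highest named genes 1 was higher at attachment sites on day 18 and 12 on day 24, where 49.8% and 44% of all probes were. PLA2G7 differed by 0.04 on day 18 and 0.34 on day 24, CLDN3 by -0.13 and 0.56, and PHGDH by -0.85 and -0.51. Of the 15 lowest genes 7 were lower on day 18 and 9 on day 24, where 50.2% and 56% of all probes were. Both pairs of shares cover all tested probes, not the named genes alone. On day 13 the median difference was 0.07 over the tested named genes and -0.07 over all tested probes. KBTBD3 differed by -0.76 on day 13, by 0.16 on day 18 and by -1.32 on day 24. HPSE, at -1.52 on day 13, stood at 0.44 on day 18 and 2.22 on day 24, and CMKLR1 at 1.06 and 0.22. None of these day-to-day changes of the site difference passed the adjusted threshold.

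**Figure D5:**
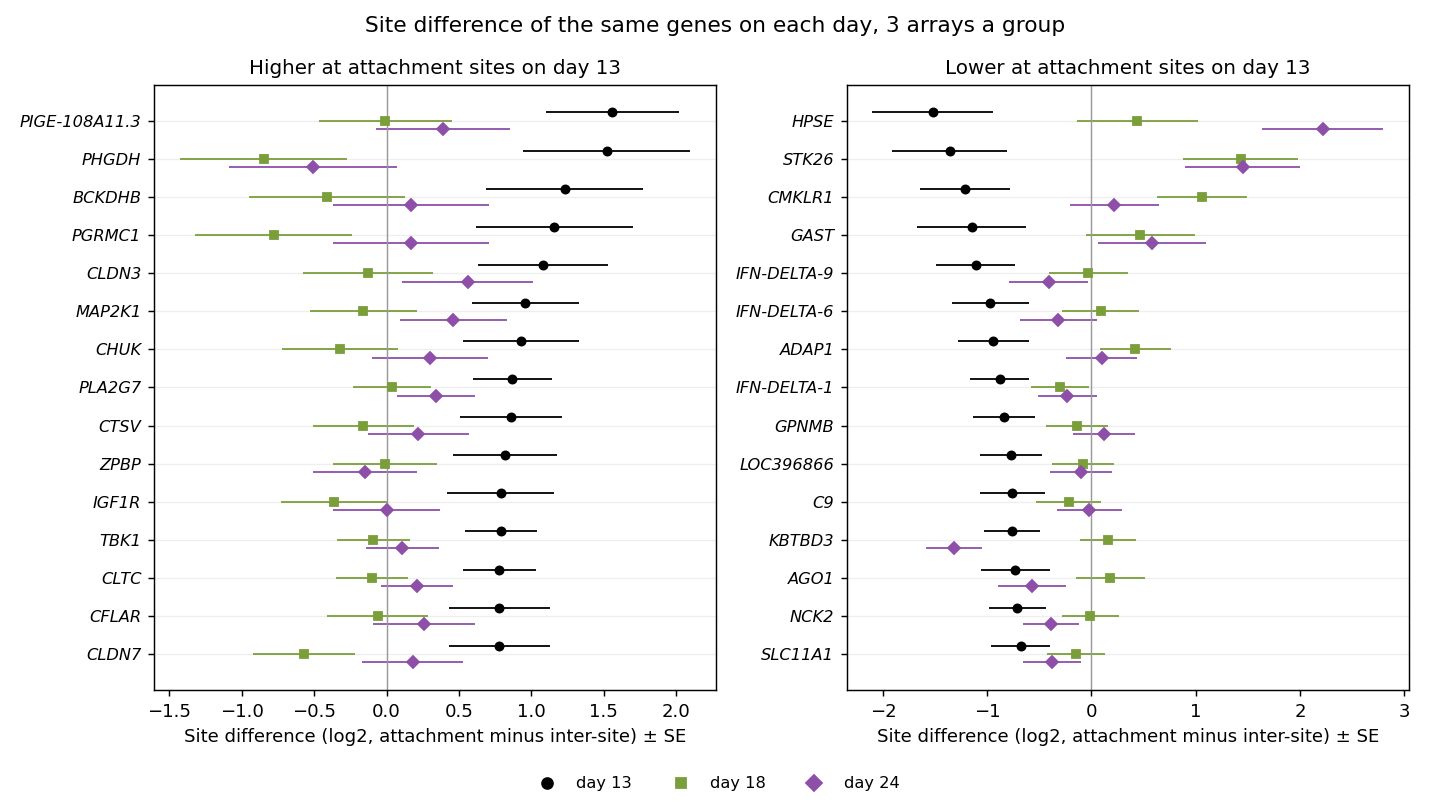
Site difference with its SE on days 13, 18 and 24 for the 15 named genes highest (left) and lowest (right) at attachment sites on day 13 (horizontal axes: log2, attachment minus inter-site, 3 arrays a group). The day 13 values chose these genes. On the left 1 of 15 is above 0 on day 18 and 12 on day 24, and on the right HPSE moves from -1.52 to 2.22.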

How the data were processed

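Tissue RNA was labelled with Cy3 and hybridised to 1-colour Agilent arrays, 1 sample each. Per the file headers, spots were read with Agilent Feature Extraction 10.7.3.1 (10.7 in the submitters' processing notes), and the deposited processed signal is a background-subtracted intensity. The deposited flags of spots well above background and of outliers were used to filter. The authors' deposited value table is on the log2 scale, with a column median of 5.85, and its centring is not stated; 19 of 21 columns matched their own array best, and it served as an alternative. The genome build was not given in the sources used here.

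Of 43803 non-control spots, outlier spots were left out and spots of one probe averaged, giving 43603 probes. Each array's 75th percentile was subtracted on the log2 scale. Testing required that all 3 arrays of some group, of 7, had the probe well above background, which kept 30091 and left out 13512. Group means were fitted over 21 arrays with limma 3.58.1 (lmFit and eBayes, R 4.3.3), with Benjamini-Hochberg adjustment over all tested probes and a threshold of 0.05. No sample was dropped or imputed, and 9 probes lack a value on some of the 6 arrays. Symbols came from RefSeq accessions (assembly Sscrofa11.1): 5461 of 5779 such probes matched, giving 2389 genes, of which 2018 were tested, and 38142 probes have no symbol here. A gene is shown by its probe of highest mean.

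The genes and lists were chosen with earlier results of these data known. Named were the 15 largest differences each way among genes with no overlap and an unadjusted p under 0.05, the 10 smallest p, at least 2 members at each end of a list, genes detected at 1 site only (up to 5 each way), and DKK1, FST, PGR and KLF5. Some genes that this rule names are not reported here. Other genes in lists were named to describe the arrays after their values were seen. Lists with fewer than 8 tested genes are not described as lists. Normexp (offset 50) used the median signal, since no mean signal is in the files. The number of arrays limits the precision. Alternatives were other scalings, the authors' table, normexp, filters, slide and replicate blocks, an intensity trend, the 6 arrays alone and leaving out each array; leaving out an array of each of 2 inter-site groups together was added after seeing the data.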

Additional observations from a re-analysis of the deposited data

Results flagged for a closer look

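For 3 named genes the site difference on day 24 differed from that on day 13 by the interaction test (limma, adjusted p = 0.0221 for each), and the other 3 of the 6 probes passing that test have no symbol here. BPI had a site difference of -1.49 on day 13 and 5.17 on day 24, a change of 6.67 on the log2 scale; on a probe other than the one used for the gene above, it was well above background on no day 13 array of either site. IL6, on a probe other than the one used for the gene, changed by 3.96, from 0.34 to 4.30. CYP19A3, a pig aromatase, changed by 5, from -0.05 to 4.94, and was above background on no day 13 array of either site. The day 24 arrays read -3.69, -2.27 and -2.37 at attachment sites and -8.88, -6.81 and -7.48 at inter-sites for CYP19A3. The number of probes passing this test was 0 without both inter-site replicate 1 of day 13 and inter-site replicate 3 of day 24.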

How the results depend on the processing

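In all 19 settings 0 probes passed the adjusted threshold for the day 13 site difference, and 0 for its difference from day 18 in the settings where that could be fitted; the 6-array settings hold no later day, so the day contrasts were not run there. For the day 24 minus day 13 contrast the 6 probes became 3 with normexp and 0 with slide as a fixed block. The count was 0 without both inter-site libraries, and 0 to 6 when each of the 6 day 13 arrays was left out. No day 24 array was left out alone. With probes well above background on all 6 day 13 arrays the count was 0. None of the 6 probes met that filter, so this setting cannot test them. At an unadjusted p under 0.05, leaving out each array gave 86 to 1545 higher and 496 to 2176 lower probes, normexp 619 and 312, the values of the authors 729 and 921, and all probes unfiltered 660 and 2052. Same-numbered arrays of the sites had deviations correlated at -0.11, -0.01 and 0.23. Differently numbered pairs reached 0.43, for attachment-site replicate 1 with inter-site replicate 2. The lowest was -0.37, for attachment-site replicate 3 with inter-site replicate 2. With 3 arrays a site, these values cannot decide whether the numbers pair the samples. With a replicate block over the 6 arrays 421 probes were higher and 1084 lower at an unadjusted p under 0.05, and 0 passed the adjusted threshold. Among named genes 670 values kept their direction and side of the threshold and 6 turned: PIGE-108A11.3 to -0.48 and ZPBP to -0.19 under normexp, and PGR to 0.00 and KLF5 to -0.39 without inter-site replicate 1, alone or together with inter-site replicate 3 of day 24. For genes whose groups did not overlap, leaving out an array could not turn the direction. Leaving out each array moved PGR between -0.49 and 0.00 and KLF5 between -0.39 and 1.08. The cause was not tested.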
